A study of Arabidopsis thaliana with 4 samples.

Results

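The genes described here are the 31 Arabidopsis thaliana genes that encode the replication-type histone H3 (H3.1, 5 genes), the replacement histone H3.3 (3 genes), histone H4 (8 genes), canonical H2A (4 genes), H2B (8 genes) and the linker histone H1 (3 genes). They were taken from the 32548 genes of the deposited expression table by locus identifier and were not selected by their values. Earlier results of these data were known when the genes were chosen. Transcript abundance was measured by mRNA sequencing of whole seedlings, 2 weeks old, raised on MS plates at 22 °C with 16 h of light and 8 h of dark. The control group was labelled as homozygous mutant for CMT3, the chromomethylase that maintains DNA methylation at CHG sites. The other group was labelled as homozygous for mutations in TCX5, TCX6 and CMT3. TCX5 and TCX6 encode CXC-domain proteins that belong to the DREAM complex, a repressor of cell cycle genes. Each genotype had 2 libraries, every library is labelled as carrying the cmt3 mutation, and the labels name no alleles. No label says whether the libraries of a genotype came from separately grown plants, so the p-values reflect the library-to-library spread alone, and this may be technical in origin.

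The deposited values are a normalised read abundance per gene, and each of the 4 columns sums to about the same total, between 38264463 and 41106102. TCX5 was at 730 and 676 in cmt3, against 251 and 249 in the labelled triple mutant (adjusted p = 0.00121, limma). TCX6 transcript was higher where TCX6 is labelled as mutant, at 198 and 180 in cmt3, against 919 and 1034 in the labelled triple mutant (adjusted p = 0.00044, limma). CMT3 transcript was present in all 4 libraries, at 822 and 662 in cmt3, against 1289 and 1343 in the labelled triple mutant. A label of mutation states no transcript level, so these values neither bear out nor contradict the labels. The genotypes were not checked otherwise, and the second is called the labelled triple mutant throughout. Of the markers of the labelled tissue, RCA, which encodes Rubisco activase, was at 144520 or more in every library. The sum of 4 floral organ identity genes was 80.8 or less in every library, and that of 3 pollen genes was 0.584 or less.

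Histone H3 and H4 form a tetramer that joins H2A and H2B dimers in the octamer around which DNA is wrapped, and H1 binds the DNA that enters and leaves this particle. In plants as in animals, most H3.1, H4, H2A and H2B transcripts are made in cells that replicate their DNA, while H3.3 genes are also transcribed outside S phase and supply chromatin at transcribed genes. Plant histone mRNAs are polyadenylated, unlike most of those of animals. In seedlings, replicating cells lie in the meristems and in young leaves. HIS1-3, an H1 gene with a short protein, is known from Arabidopsis to be induced by drought and abscisic acid.

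The classes differ in gene structure. The 5 H3.1 genes encode 1 identical protein of 136 residues from 1 exon each, and the 8 H4 genes encode 1 identical protein of 103 residues, 7 of them from 1 exon. All 8 H2B genes have 1 exon and encode 8 distinct proteins, whereas the 4 H2A, 3 H3.3 and 3 H1 genes all have introns. The H3.1 gene AT1G09200 and the H3.3 gene AT4G40040 encode proteins that differ at 4 of 136 residues, but their coding sequences differ at 90 of 411 bases. Reads from the H3.1 and H3.3 genes can thus be told apart. In 19 of the 31 genes no stretch of 50 bases of the exons was found elsewhere in the genome, and in 6 others 2.12% or less was. Only 6 H4 genes shared more than 5% of their 50-base stretches.

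Sequences upstream of 6 genes are shown to let the promoter elements named in later paragraphs be seen in place. The genes were chosen, after their values were seen, to show 3 of the element kinds searched and to include the genes with the highest rise and the fall. Each line gives the 250 bases before the annotated start, read 5′ to 3′ on the strand of the gene, from RefSeq's TAIR10.1 assembly. Capitals mark the histone octamer element (CGCGGATC, or GATCCGCG where it lies on the other strand), the hexamer ACGTCA, and an E2F-type site (TTTGGCGC). AT1G09200 (H3.1, chr1:2972335-2972584, minus strand) holds the octamer at 2 places, HTA13 (H2A, AT3G20670, chr3:7229140-7229389, plus strand) at 1 place, and AT4G40040 (H3.3, chr4:18558946-18559195, minus strand) at 1 place. AT3G53650 (H2B, chr3:19889047-19889296, plus strand) holds the hexamer, AT3G45930 (H4, chr3:16883066-16883315, plus strand) holds the E2F-type site, and HIS1-3 (H1, AT2G18050, chr2:7845673-7845922, plus strand) holds none of these.
AT1G09200: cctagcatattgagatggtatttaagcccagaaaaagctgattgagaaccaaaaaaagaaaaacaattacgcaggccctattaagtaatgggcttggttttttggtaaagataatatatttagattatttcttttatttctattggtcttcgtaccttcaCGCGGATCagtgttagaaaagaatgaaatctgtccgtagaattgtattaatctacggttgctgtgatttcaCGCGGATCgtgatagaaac
HTA13: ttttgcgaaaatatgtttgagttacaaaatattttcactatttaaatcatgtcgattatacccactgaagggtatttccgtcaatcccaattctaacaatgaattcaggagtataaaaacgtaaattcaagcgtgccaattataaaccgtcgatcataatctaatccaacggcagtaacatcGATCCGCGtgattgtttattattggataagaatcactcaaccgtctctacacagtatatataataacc
AT4G40040: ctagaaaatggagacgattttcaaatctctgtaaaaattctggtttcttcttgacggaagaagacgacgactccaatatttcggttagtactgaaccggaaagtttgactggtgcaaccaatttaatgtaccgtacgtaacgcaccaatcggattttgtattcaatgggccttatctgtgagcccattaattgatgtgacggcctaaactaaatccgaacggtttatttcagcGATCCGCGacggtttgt
AT3G53650: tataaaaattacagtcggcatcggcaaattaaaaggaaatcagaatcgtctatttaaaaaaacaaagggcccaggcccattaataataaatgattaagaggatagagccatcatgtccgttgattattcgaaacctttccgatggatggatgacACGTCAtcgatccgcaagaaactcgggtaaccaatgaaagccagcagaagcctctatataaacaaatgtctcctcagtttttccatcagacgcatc
AT3G45930: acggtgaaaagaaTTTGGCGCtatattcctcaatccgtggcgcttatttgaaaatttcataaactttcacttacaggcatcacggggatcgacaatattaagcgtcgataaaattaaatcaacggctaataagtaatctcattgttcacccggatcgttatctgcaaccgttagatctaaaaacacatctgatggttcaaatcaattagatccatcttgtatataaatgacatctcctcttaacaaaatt
HIS1-3: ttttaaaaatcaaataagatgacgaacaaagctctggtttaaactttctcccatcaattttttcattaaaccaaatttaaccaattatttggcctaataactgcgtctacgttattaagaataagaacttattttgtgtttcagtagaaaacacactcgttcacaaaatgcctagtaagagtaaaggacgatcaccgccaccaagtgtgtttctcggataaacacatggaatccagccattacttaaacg

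All 31 genes passed the filter of 1 or more in at least 2 libraries, and the lowest value of any of them was 185 for AT3G27360. Across 23666 tested genes, 6.15% were called higher and 2.32% lower in the labelled triple mutant (limma, Benjamini-Hochberg adjusted p under 0.05). Of the histone genes 5, or 16.1%, rose and 1, or 3.23%, fell. The genes that rose were the H3.1 genes AT5G65360, AT1G09200 and AT5G10390, the H2A gene HTA13 and the H2B gene AT3G53650, and the gene that fell was HIS1-3. The other 25 genes were not called, and 18 of the 31 had means within 1.2-fold of each other in the 2 genotypes. The median log2 fold change was 0.12 over the histone genes and -0.02 over all tested genes. Among genes with a mean of 100 or more, a stratum chosen after the values were seen because all 31 lie in it, 7.52% were called higher and 2.71% lower. Both labelled triple mutant libraries lay above both cmt3 libraries in 18 of the 31 histone genes, against 24.4% of all tested genes. They lay below both cmt3 libraries in 8 of the 31, close to the share of 25.7% among all tested genes. Without the mean-variance trend in limma only AT3G53650 stayed called, and without either labelled triple mutant library no gene of the table was, although 2407 and 2490 genes, 7 histone genes in each case, had an unadjusted p under 0.05 in limma.

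**Figure D1:**
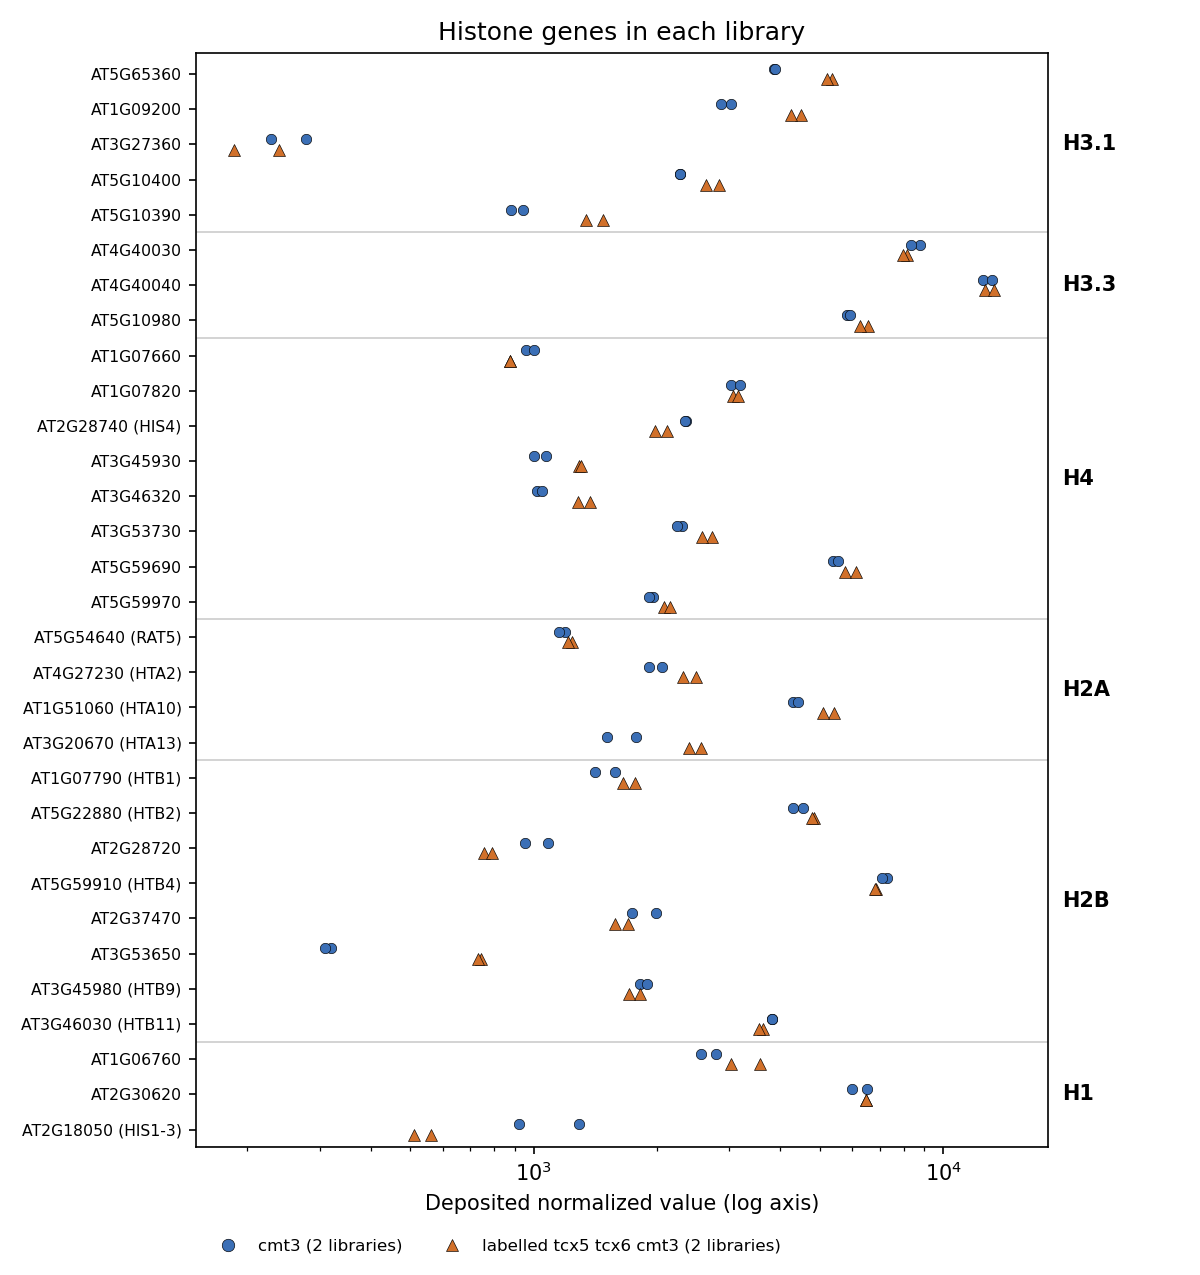
Deposited normalised abundance of the 31 histone genes in each of the 4 libraries, on a log10 axis, grouped by class, with 1 point per library. Both libraries of the labelled triple mutant lie to the right of both cmt3 libraries for 18 genes. These include 4 of 5 H3.1, 5 of 8 H4 and all 4 H2A genes. Both lie to the left of both cmt3 libraries for 8 genes, HIS1-3 among them. Of all tested genes, 24.4% lie higher and 25.7% lower without overlap.

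H3.1, the form of H3 that is loaded behind replication forks, showed 3 called rises among 5 genes, beside 6.15% of all tested genes. On TAIR10.1 they are AT1G09200 (chr1:2971571-2972334), AT5G10390 (chr5:3268847-3269594) and AT5G65360 (chr5:26119859-26120581), all on the minus strand. AT1G09200 was at 3036 and 2868 in cmt3, against 4503 and 4259 in the labelled triple mutant. Both labelled triple mutant libraries were above both cmt3 libraries, by a log2 fold change of 0.57 ± 0.08 (SE; adjusted p = 0.00784, limma). AT5G10390 was at 939 and 882 in cmt3, against 1343 and 1480 in the labelled triple mutant, again without overlap, with a log2 fold change of 0.63 ± 0.09 (adjusted p = 0.0101, limma). AT5G65360 was at 3860 and 3894 in cmt3, against 5343 and 5210 in the labelled triple mutant. The gap between the genotypes was wider than that within either of them, with a log2 fold change of 0.44 ± 0.07 (adjusted p = 0.0156, limma). Without cmt3 replicate 2 the adjusted p of AT5G10390 was 0.0548, while AT1G09200 and AT5G65360 stayed called.

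The 2 other H3.1 genes did not pass the test. AT5G10400 was at 2273 and 2282 in cmt3, against 2840 and 2633 in the labelled triple mutant (adjusted p = 0.109, limma). Its libraries did not overlap either, and its log2 fold change of 0.26 has a 95% interval from 0.08 to 0.45. AT5G10400 and AT5G10390 are neighbours on chromosome 5, 577 bp apart on the same strand. AT3G27360 was the lowest of the 31 genes, at 229 and 278 in cmt3, against 185 and 239 in the labelled triple mutant. Its libraries overlapped, and its interval from -0.76 to 0.24 was the widest of the H3.1 genes. AT3G27360 overlaps AT3G27380 on the same strand, which was at 2665 or more in every library, so that its low values are uncertain.

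The H3.3 genes, which carry introns and are not restricted to S phase, had no called change (limma; 0 of 3 had an unadjusted p under 0.05). AT4G40040, the gene with the highest abundance of the 31, was at 12505 and 13130 in cmt3, against 12629 and 13269 in the labelled triple mutant. The libraries of the genotypes interleaved, with a log2 fold change of 0.01 and a 95% interval from -0.22 to 0.25. AT4G40030, which lies 42 bp from AT4G40040 on the same strand, was at 8760 and 8361 in cmt3, against 8174 and 7979 in the labelled triple mutant, with an interval from -0.29 to 0.12. AT5G10980 was at 5827 and 5930 in cmt3, against 6548 and 6252 in the labelled triple mutant, with an interval from -0.07 to 0.31. These intervals allow changes of up to about the size seen in AT5G10400, so the test does not show that H3.3 transcripts were equal.

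Set against each other per kb of exon, the H3.1 genes made up 38.5% and 38.0% of H3.1 plus H3.3 abundance in cmt3, against 45.8% and 45.2% in the labelled triple mutant. The 2 genotypes did not overlap, and their means differed by 7.22 percentage points. This share is a ratio within a library and does not change when a library is multiplied by a factor. The order of the H3.1 genes per kb was the same in all 4 libraries, with AT5G65360 highest, at 39.1% of the H3.1 sum in cmt3 and 38.9% in the labelled triple mutant. AT1G09200 followed at 28.2% and 30.5%, then AT5G10400 at 21.1% and 18.5%, AT5G10390 at 9.43% and 10.7%, and AT3G27360 at 2.22% and 1.36%.

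**Figure D2:**
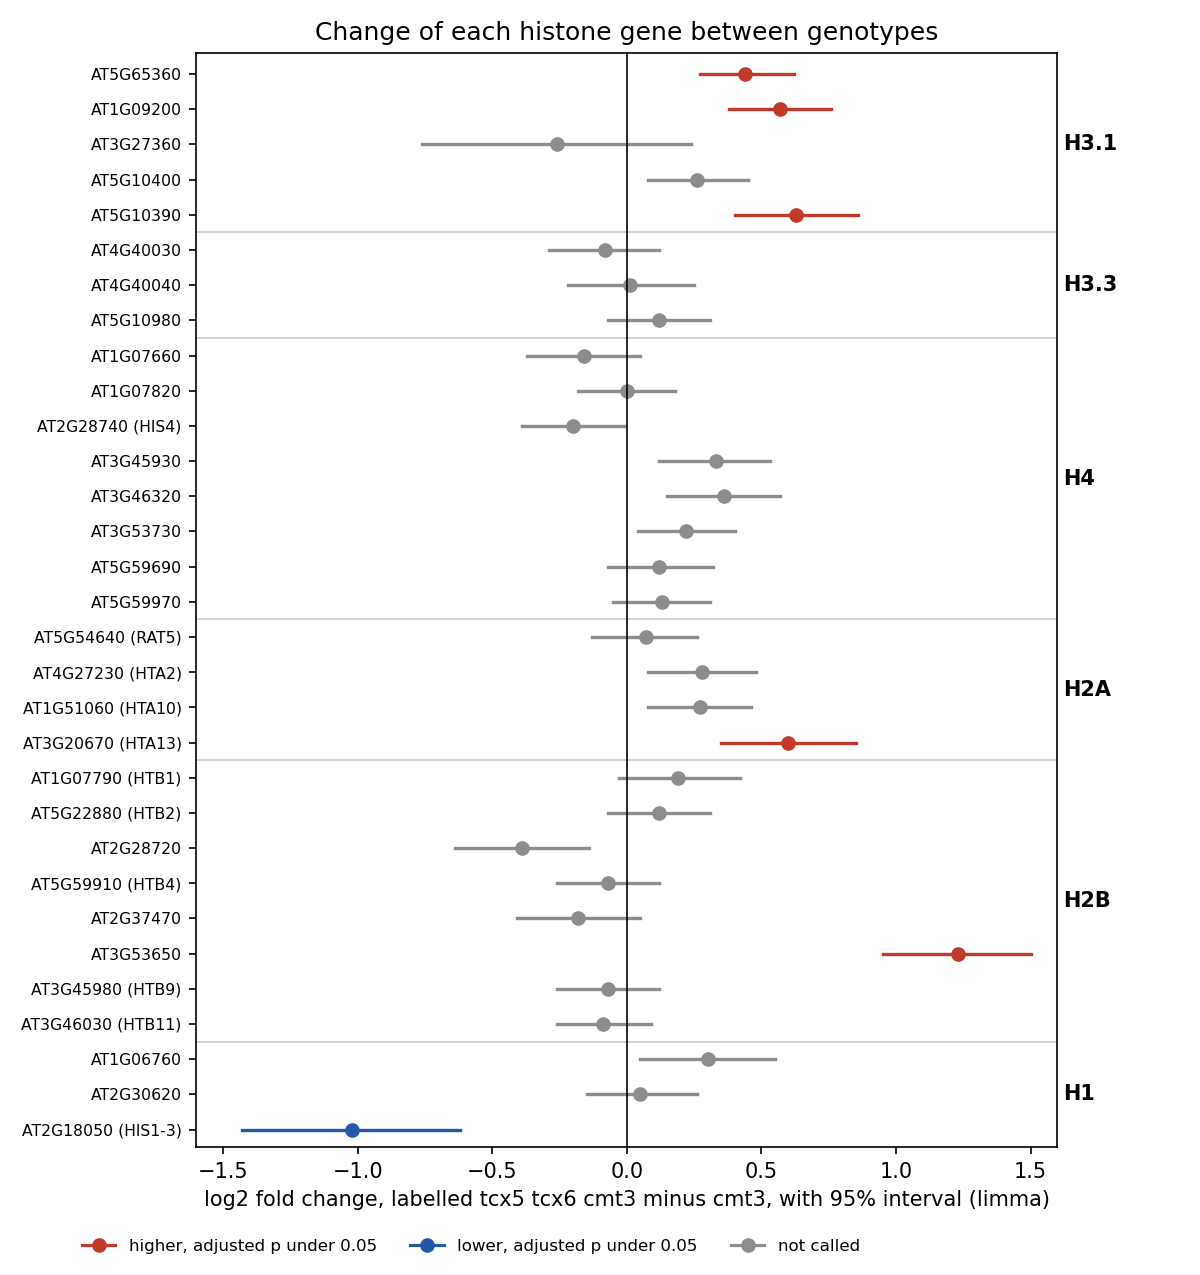
Log2 fold change of each histone gene, labelled triple mutant minus cmt3, as a point with its 95% interval from limma, by class. The 5 called rises lie between 0.44 and 1.23 and the fall of HIS1-3 is at -1.02, while the H3.3 and H4 genes lie between -0.20 and 0.36.

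None of the 8 H4 genes passed the test (limma; 4 had an unadjusted p under 0.05), and their log2 fold changes ran from -0.20 to 0.36. The highest were those of AT3G46320 and AT3G45930. AT3G46320 was at 1019 and 1049 in cmt3, against 1284 and 1373 in the labelled triple mutant (adjusted p = 0.0551, limma). AT3G45930 was at 1004 and 1072 in cmt3, against 1293 and 1306 in the labelled triple mutant (adjusted p = 0.075, limma). Neither gene had overlapping libraries. They share 25.7% of the 50-base stretches of AT3G45930 and 27.9% of those of AT3G46320, so how reads were split between them is uncertain.

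The lowest log2 fold change among the H4 genes was that of HIS4, which was at 2355 and 2343 in cmt3, against 1977 and 2116 in the labelled triple mutant (adjusted p = 0.212, limma). AT1G07660, with a mean of 979 ± 32.8 (SD, n = 2) in cmt3 against 875 ± 0.574 in the labelled triple mutant, was also without overlap and not called. Its near copy AT1G07820 had means of 3104 and 3110 and a log2 fold change of 0.00. AT1G07660 has 28.85% of its stretches in common with AT1G07820, and AT1G07820 19.4% with AT1G07660. How reads were split between them is likewise uncertain. AT3G53730 had a log2 fold change of 0.22, AT5G59970 one of 0.13 and AT5G59690 one of 0.12, each with both labelled triple mutant libraries above both cmt3 libraries. Per kb, AT5G59690 held the largest share of H4 abundance, 32.7% in cmt3 and 33.4% in the labelled triple mutant. AT5G59690 shares 8.48% of its stretches with AT5G59970, and AT5G59970 6.94% with AT5G59690, so the same limit applies to them.

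Canonical H2A was the class in which all genes had higher values in both labelled triple mutant libraries, with 1 call among 4. Of all tested genes, 24.4% lay higher in this way and 6.15% were called higher. HTA13 was at 1773 and 1507 in cmt3, against 2562 and 2396 in the labelled triple mutant. The genotypes were well apart, with a log2 fold change of 0.60 ± 0.10 (SE; adjusted p = 0.0167, limma). Without cmt3 replicate 2 the log2 fold change was 0.48 and the adjusted p 0.0501. HTA13 overlaps AT3G20680 on the opposite strand, and no source used here gives the strand setting of the counting. AT3G20680 had a mean of 661 in cmt3 and 652 in the labelled triple mutant (adjusted p = 0.978, limma).

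HTA10, the most abundant canonical H2A gene per kb, was at 4291 and 4431 in cmt3, against 5403 and 5090 in the labelled triple mutant (adjusted p = 0.11, limma). HTA2 was at 2054 and 1912 in cmt3, against 2497 and 2320 in the labelled triple mutant (adjusted p = 0.111, limma). The log2 fold changes, 0.27 for HTA10 and 0.28 for HTA2, were near that of the uncalled H3.1 gene AT5G10400. RAT5, named from a mutant resistant to Agrobacterium transformation, was at 1191 and 1152 in cmt3, against 1239 and 1215 in the labelled triple mutant. Its log2 fold change was 0.07, with an interval from -0.13 to 0.26.

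H2B held both the highest rise of the 31 genes and 5 genes with lower means in the labelled triple mutant. AT3G53650 was at 320 and 309 in cmt3, against 745 and 729 in the labelled triple mutant. The values within each genotype lay close together and the means differed 2.35-fold, a log2 fold change of 1.23 ± 0.11 (SE; adjusted p = 0.00177, limma). AT3G53650 was the least abundant H2B gene per kb in cmt3, and its share of the H2B sum was 1.40% in cmt3 and 3.3% in the labelled triple mutant. None of its 50-base stretches was found elsewhere in the genome.

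AT2G28720 lay at the other end of the class, at 1086 and 954 in cmt3, against 757 and 793 in the labelled triple mutant. Its libraries did not overlap and its log2 fold change was -0.39, with an adjusted p of 0.0768 (limma). It passed the threshold when libraries were scaled by quantile normalisation (adjusted p = 0.0467) or by median centring (adjusted p = 0.0476), over a range of 0.0467 to 0.58 across all alternatives. AT2G28720 and the H4 gene HIS4, whose means differed by -24.1% and -12.9% between the genotypes, lie 1536 bp apart on chromosome 2, on opposite strands. AT2G37470 had a log2 fold change of -0.18, HTB11 of -0.09, HTB4 of -0.07 and HTB9 of -0.07, and none of them was called. HTB1 at 0.19 and HTB2 at 0.12 were higher in both labelled triple mutant libraries and not called. HTB4, HTB2 and HTB11 together held most of the class per kb, at 23.9%, 22.3% and 21.8% of the sum in cmt3, against 22.7%, 24.3% and 20.5% in the labelled triple mutant.

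Among the linker histone genes HIS1-3 fell. It was at 1292 and 923 in cmt3, against 512 and 562 in the labelled triple mutant. All 4 values kept the genotypes apart, although the cmt3 libraries differed 1.40-fold from each other, the widest replicate gap among the 31 genes. The log2 fold change was -1.02 ± 0.17 (SE; adjusted p = 0.015, limma), and without cmt3 replicate 1, the higher library, it was -0.78 (adjusted p = 0.0476). Its share of H1 abundance per kb was 17.5% and 14.1% in cmt3, against 7.05% and 8.21% in the labelled triple mutant.

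The main H1 genes did not pass the test. AT2G30620, the most abundant of the 3 per kb, was at 6512 and 5984 in cmt3, against 6485 and 6476 in the labelled triple mutant, with overlapping libraries. AT1G06760 was at 2794 and 2564 in cmt3, against 3572 and 3032 in the labelled triple mutant, without overlap (log2 fold change 0.30, adjusted p = 0.167, limma).

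Because HIS1-3 responds to drought and abscisic acid, 6 other genes of that response were measured beside it. Of these, 2 fell and none rose, beside 2.32% of all tested genes called lower and 6.15% called higher. On the log2 scale the median was -0.40 and the range from -0.96 to 0.10. ABI1, a phosphatase that restrains abscisic acid signalling, was at 6538 and 5456 in cmt3, against 3549 and 3654 in the labelled triple mutant (adjusted p = 0.00889, limma). COR15A, which encodes a chloroplast protein induced by cold and drought, was at 17912 and 13030 in cmt3, against 7113 and 8681 in the labelled triple mutant (adjusted p = 0.0224, limma). Without cmt3 replicate 1 COR15A was not called (log2 fold change -0.73, adjusted p = 0.0883), and ABI1 was (adjusted p = 0.0283). KIN2, another cold- and drought-induced gene, was at 18122 and 14480 in cmt3, against 12702 and 12634 in the labelled triple mutant and was not called (adjusted p = 0.198, limma), although it was without cmt3 replicate 2 (adjusted p = 0.0316). The list summed to 50762 and 38639 in cmt3, against 28877 and 30117 in the labelled triple mutant, with cmt3 replicate 1 highest, as for HIS1-3. COR15A and KIN2 made up most of this sum in each library. The part of this list in the HIS1-3 result was not tested.

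Summed by class, the deposited abundance of H3.1 was 10337 and 10204 in cmt3, against 14213 and 13822 in the labelled triple mutant. The means differed by 36.5%, the widest gap of the 6 classes. H2A summed to 9309.6 and 9001.8 in cmt3, against 11701 and 11021 in the labelled triple mutant, 24.1% higher in the mean. H4 summed to 18003 and 18325 in cmt3, against 19053 and 19673 in the labelled triple mutant, 6.6% higher in the mean. In these 3 classes both labelled triple mutant libraries lay above both cmt3 libraries.

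In the other 3 classes the sums overlapped between genotypes. H3.3 summed to 27093 and 27421 in cmt3, against 27351 and 27499 in the labelled triple mutant. H2B summed to 22456 and 21498 in cmt3, against 22004 and 21740 in the labelled triple mutant. The rise of AT3G53650 thus stood beside a class sum that differed by -0.477% in the mean, AT3G53650 being a small part of it. H1 summed to 10598 and 9471 in cmt3, against 10569 and 10070 in the labelled triple mutant. No p-value is given for these sums, since the genes they add were chosen with results of these data known. The H3.3, H2B and H1 sums change sign under some alternatives.

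**Figure D3:**
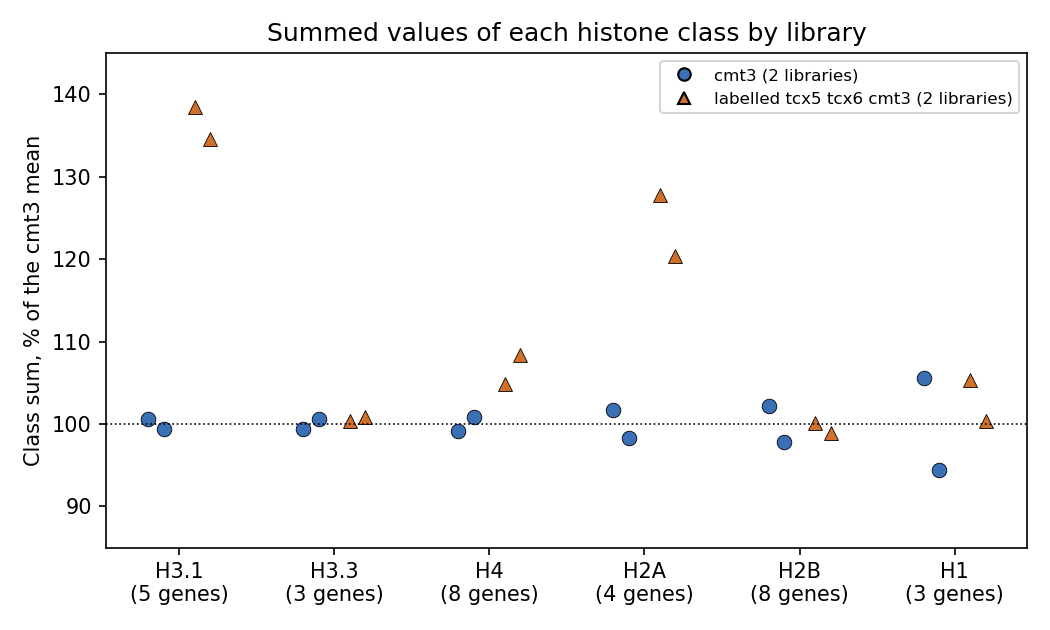
Sum of the deposited abundance of each histone class, as a percent of the class mean in cmt3 (dotted line at 100), with 1 point for each of the 4 libraries and an axis that does not start at 0. The H3.1, H4 and H2A sums do not overlap between genotypes, and the H3.3, H2B and H1 sums do.

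Per kb of exon the core histone classes were not in equal proportion. In cmt3 the sums per kb were 13721 for H3.1, 22141 for H3.3, 22398 for H4, 11514 for canonical H2A and 23425 for H2B. The H2A sum leaves out the H2A variants, which the nucleosome also uses. Relative to all H3 genes, H2B stood at 0.667 and 0.639 in cmt3 and at 0.567 in both labelled triple mutant libraries. H4 stood at 0.619 and 0.630 in cmt3, against 0.563 and 0.593 in the labelled triple mutant, and canonical H2A at 0.328 and 0.314 in cmt3, against 0.358 and 0.341 in the labelled triple mutant. None of the 3 ratios overlapped between genotypes. They share the H3 sum as denominator, in which H3.1 was at 18774 per kb in the labelled triple mutant, so they are not separate results. The H2B sum per kb there was 23414 and the H4 sum 23858, so their lower ratios do not reflect a marked fall in either sum.

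The other histone genes were read beside these classes. The counts of this and the following lists stand beside 6.15% of all tested genes called higher and 2.32% called lower. Of 9 H2A variant genes, 3 rose and 1 fell, and the median log2 fold change was 0.06. HTA11, an H2A.Z gene, was at 1283 and 1371 in cmt3, against 2640 and 2787 in the labelled triple mutant (adjusted p = 0.00102, limma). HTA8, also H2A.Z, was at 358 and 464 in cmt3, against 1126 and 1135 in the labelled triple mutant (adjusted p = 0.00213, limma). Both exceeded every canonical H2A gene in log2 fold change, at 1.03 and 1.47 against at most 0.60. HTA11 and HTA8 do not stand for the variants as a group. HTA9, another H2A variant gene, changed by 0.06 on the log2 scale and was not called (adjusted p = 0.728, limma). Its mean was 3584 in cmt3 and 3736 in the labelled triple mutant, and it is named after its value was seen. HTA4 was at 180 and 140 in cmt3, against 15.9 and 18.5 in the labelled triple mutant (adjusted p = 0.00277, limma), lower in both libraries. The third rise, HTA6, which encodes an H2A.W protein, had a log2 fold change of 0.40 (adjusted p = 0.03, limma) and is named because it completes the count.

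Of 9 further H3 and H2B genes 7 were tested, and 2 rose. The centromeric H3 gene CENH3 (HTR12), whose product marks the site of the kinetochore, was at 195 and 209 in cmt3, against 494 and 553 in the labelled triple mutant (adjusted p = 0.00296, limma). AT3G09480, annotated as a histone superfamily protein, was at 109 and 130 in cmt3, against 220 and 229 in the labelled triple mutant (adjusted p = 0.0462, limma). This call was lost under 4 of the alternative fits with all libraries (adjusted p from 0.051 to 0.0809) and without either cmt3 library (0.0952 without replicate 1, 0.0573 without replicate 2). The libraries of AT3G09480 did not overlap, nor did those of HTR11, at 66.1 and 76.0 in cmt3, against 135 and 127 in the labelled triple mutant, which was not called (adjusted p = 0.0965, limma).

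Histone chaperones carry newly made histones to DNA. Of 14 chaperone genes 4 rose, none fell and 10 were not called. Their median log2 fold change was 0.14, with a range from -0.16 to 1.58. FAS1 and FAS2 encode subunits of CAF-1, which loads H3.1 and H4 behind the replication fork. FAS1 was at 594 and 528 in cmt3, against 1682 and 1675 in the labelled triple mutant (adjusted p = 0.000555, limma). FAS2 was at 251 and 258 in cmt3, against 645 and 609 in the labelled triple mutant (adjusted p = 0.00208, limma). Both rose more on the log2 scale, by 1.58 and 1.3, than any of the 31 histone genes. MSI1, also a CAF-1 subunit gene and named after its value was seen, had a log2 fold change of 0.20 and was not called (adjusted p = 0.292, limma). AT4G37210, a tetratricopeptide repeat protein gene, rose by 0.74 (adjusted p = 0.00277, limma). ASF1B, which encodes an H3-H4 chaperone, rose by 1.11 (adjusted p = 0.00397, limma) and is named because it completes the count. HIRA, which encodes a chaperone of H3.3, had a log2 fold change of -0.07 and was not called, a gene singled out after its value was seen.

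Genes of DNA replication and mitosis were read beside the histone genes in the same libraries. Of 14 replication genes 12 rose, with a median log2 fold change of 0.77 and a range from 0.48 to 1.63. ORC1B, a subunit of the origin recognition complex, was at 303 and 319 in cmt3, against 950 and 979 in the labelled triple mutant (adjusted p = 0.000668, limma). TIL1, the catalytic subunit of DNA polymerase epsilon, rose by 1.3 on the log2 scale (adjusted p = 0.000532, limma). AT5G63960, annotated as subunit 1 of DNA polymerase delta, rose by 1.29 (adjusted p = 0.00059, limma). The sum of the list was 16360 and 14891 in cmt3, against 29632 and 28830 in the labelled triple mutant. All 14 genes had higher values in both labelled triple mutant libraries, and the lowest log2 fold change among them, 0.48, exceeded that of all histone genes but 4, which were AT1G09200, AT5G10390, HTA13 and AT3G53650.

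All 8 mitosis genes rose, and their median log2 fold change was 0.98. The kinase gene AUR1 was at 408 and 418 in cmt3, against 1404 and 1277 in the labelled triple mutant (adjusted p = 0.000499, limma). CDKB2;1, a mitotic cyclin-dependent kinase gene, rose by 1.18 (adjusted p = 0.000761, limma), and SYP111, the cytokinesis syntaxin gene, by 1.03 (adjusted p = 0.00117, limma). The list summed to 5507 and 5467 in cmt3, against 11138 and 10797 in the labelled triple mutant. In bulk seedlings, more cells in division and more RNA per such cell cannot be told apart, and likewise for fewer cells or less RNA. The part of these lists in the histone results was not tested. None of the 5 green tissue genes or the 4 root genes was called (limma; 0 had an unadjusted p under 0.05), with median log2 fold changes of -0.14 and 0.03. Without cmt3 replicate 2, however, the root genes PHO1 (log2 fold change 0.86, adjusted p = 0.0274) and IRT1 (0.48, adjusted p = 0.0414) were called higher.

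**Figure D4:**
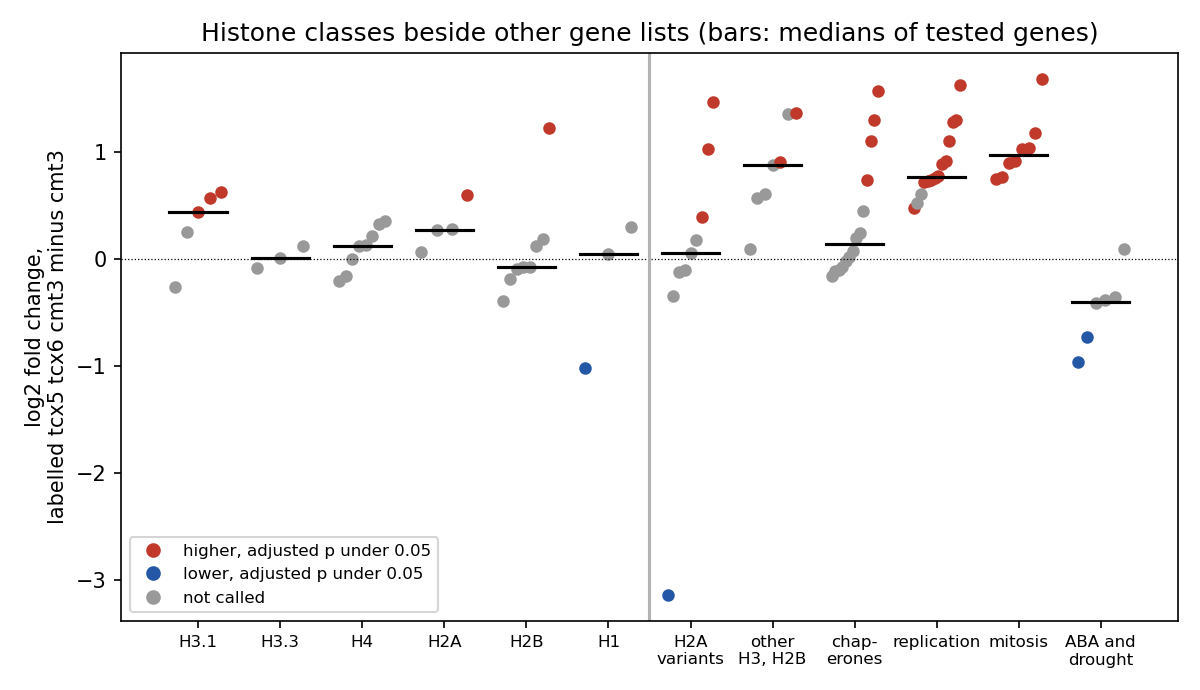
Log2 fold change of every tested gene of the 6 histone classes and of the other lists, labelled triple mutant minus cmt3, with 1 point per gene and a bar at each median. The medians are 0.98 for mitosis, 0.77 for replication, 0.44 for H3.1, 0.27 for H2A, 0.13 for H4, 0.01 for H3.3 and -0.07 for H2B.

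Promoter elements were searched, as exact letter matches on both strands, from 250 bases before to 50 bases after the annotated start. The search covered the 31 genes and all 27443 protein-coding genes. The octamer element CGCGGATC, known from plant histone promoters, was in 9 of the 31 windows, or 29.0%, and in 40 of all windows, or 0.146%. It lay in 3 H3.1, 2 H4, 2 H2A, 1 H3.3 and 1 H1 window and in no H2B window. It was also in 1 of 18 windows of the H2A variants and other histone genes. The hexamer ACGTCA was in 12 windows, or 38.7% against 9.19% of all, and in all 8 H2B windows. AACGG, the core of a binding motif of MYB factors, was in 20 windows, or 64.5% against 24.7%, and in all 5 H3.1 windows.

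E2F-type sites (TTTCCCGC, TTTGGCGC, TTTCGCGC or TTTGCCGC) were in 3 windows, or 9.68% against 1.76% of all. They were those of AT3G45930, AT3G46320 and HTB2, none of which was called. The CHR motif (TTTGAA or TTCGAA), bound by the CXC-domain subunits of DREAM in animals, was in 12 windows, or 38.7% against 48.7%. The telo box AAACCCTAA was in 0 of the 31 windows and in 3.60% of all.

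As a description, the 9 genes with an octamer had a median log2 fold change of 0.27 and 3 calls, and the 22 without it 0.06 and 3 calls. The 3 genes with an E2F-type site had a median of 0.33 and 0 calls, and the 28 without it 0.09 and 6 calls. AT3G45930 and AT3G46320 hold such a site, and how reads were split between these genes is uncertain. With AACGG, 20 genes had a median of 0.13 and 5 calls, and the 11 without it 0.07 and 1 call. With the CHR motif, 12 genes had a median of 0.12 and 1 call, and the 19 without it 0.07 and 5 calls. The 12 genes with ACGTCA had a median of -0.03 and 1 call, and the 19 without it 0.22 and 5 calls. Elements and classes go together, with ACGTCA in every H2B window, so these medians are not separate from the class differences. AT3G53650, with the highest log2 fold change, held ACGTCA and no exact octamer. Its printed sequence has gatccgca beside the hexamer, which differs from GATCCGCG in the last base only. AT4G40040, with a log2 fold change of 0.01, held an octamer that starts 17 bases before its annotated start. A match of letters is not a binding site, and a window without one says nothing of the factor.

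**Figure D5:**
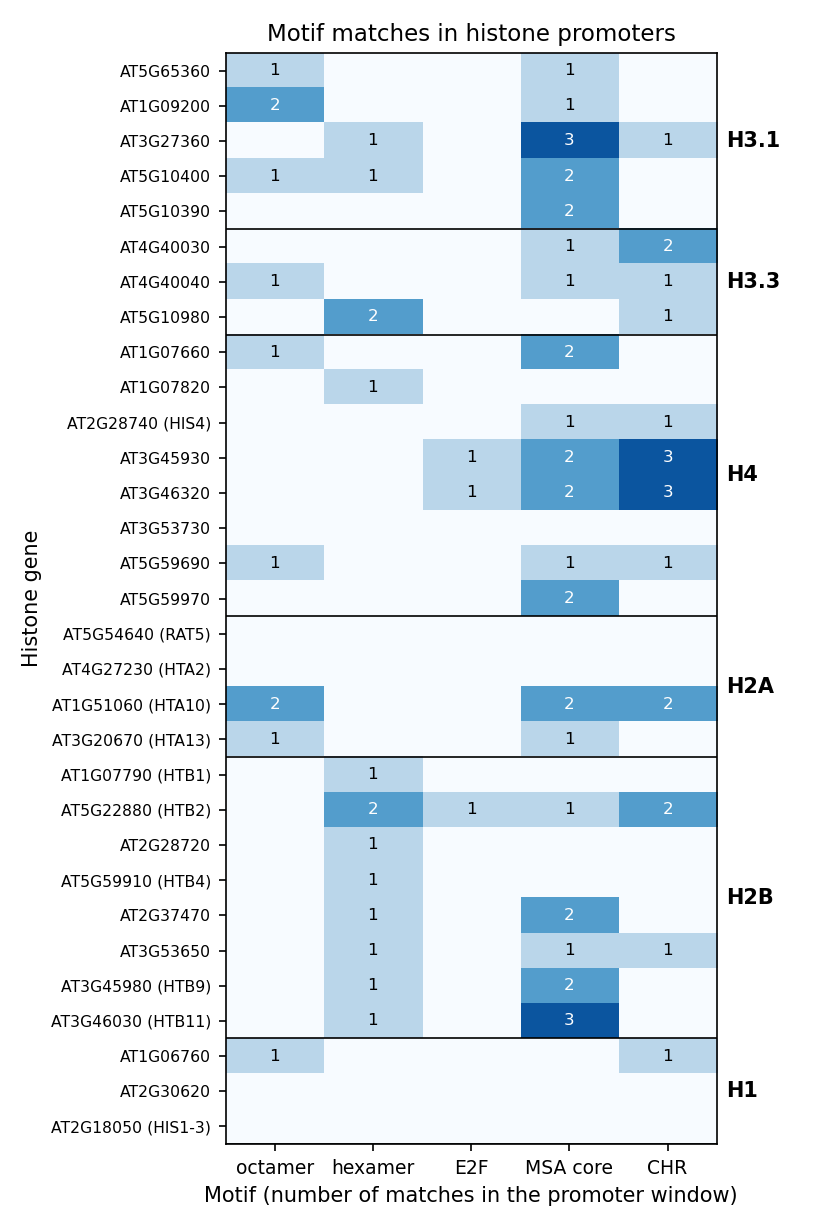
Number of matches of each motif in the promoter window of each of the 31 histone genes, as a grid with genes grouped by class. The columns are the octamer, the hexamer ACGTCA, E2F-type sites, the MYB core AACGG (labelled MSA core) and the CHR motif. The hexamer is in all 8 H2B windows and the octamer in no H2B window. The MYB core is in all 5 H3.1 windows.

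Base composition also moved with the change among the histone genes. Across the 31 genes, which share the same 4 libraries, the GC content of the exons and the log2 fold change had a Pearson r of 0.46 and a Spearman rho of 0.59, seen after the values were known. Across all 23666 tested genes the same measures gave 0.05 and 0.06. HIS4, AT2G28720 and AT3G27360 had the lowest GC content, between 35.4% and 37.6%, and negative log2 fold changes. The next lowest, AT3G53730 at 38.5%, had a log2 fold change of 0.22. The 3 called H3.1 genes lay between 42.7% and 44.0%, and AT5G10400 of the same class at 43.1%. GC content went partly with class, so these correlations are not separate from the class differences. AT3G53650, at 39.2%, and HIS1-3, at 39.0%, were nearly equal in GC content and moved in opposite directions. The part of base composition in these results was not tested.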

How the data were processed

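The deposited values are a normalised signal per gene and library, with 1 column per library. Per the submitters' processing notes, the authors used HISAT2, TAIR10 and edgeR, with no version stated. No source used here gives the counter, its strand setting or the scaling step. Of the values under 12, between 32.4% and 43.8% per library lay within 0.1 of a whole multiple of the best step, so reads were not recovered, the depth is unknown and no count test was used. A further 4 columns of per-sample values belong to none of the given samples. Their summary statistics were seen at the first look, but they enter no fit and no value. Values under 1e-10 were set to 0.

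Genes with 1 or more in at least 2 libraries (23666) were fitted as log2(value + 1) with limma 3.58.1 in R 4.3.3, with a term for genotype and an intensity trend in the prior variance, and the Benjamini-Hochberg adjustment ran over all of them. Fold changes are on that log2 scale, which understates low genes. Class sums add deposited values, and values per kb divide by exon length. The fit was tested on simulated data, whose spread was lowered after a first run recovered few small changes. The share recovered depends on that choice, so it gives no measure of power here. Gene models, sequences and 50-base matches come from RefSeq on TAIR10.1 with Python 3.11.15, and all 32548 identifiers matched its locus tags. Named genes outside the histone classes are the mutated genes and up to 3 genes per list with the smallest p, with exceptions stated. The histone genes, the lists and the elements were chosen with earlier results of these data known. Alternatives were 2 other scalings, other filters, a pseudocount of 0.1, no trend, a replicate block, each library left out, and other thresholds.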

Additional observations from a re-analysis of the deposited data

How the results depend on the processing

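Quantile normalisation, and centring libraries on the median of genes averaging 100 or more, each gave 2 lower histone genes, with AT2G28720 added. These scalings moved the median log2 fold change of all genes from -0.02 to -0.04 and -0.07. Without the mean-variance trend 586 genes were higher and 135 lower, with 1 and 0 histone genes. At a threshold of 0.01 the counts were 780 and 173, with 2 and 0 histone genes. With a change of 2-fold or more they were 776 and 190, with 1 histone gene higher and 1 lower. Leaving out a library gave from 0 to 1281 higher and from 0 to 530 lower genes, with from 0 to 5 and from 0 to 1 histone genes. Both zeros came from leaving out either labelled triple mutant library, where limma gave 2407 and 2490 genes, 7 histone genes each, at an unadjusted p under 0.05, against 4840 and 15 with all libraries, and the lone library is assumed to vary like the others. Without cmt3 replicate 1, 341 genes were lower, and without cmt3 replicate 2, 3 histone genes were higher. Of the calls lost without the trend, the adjusted p was 0.1 for AT1G09200, 0.101 for AT5G10390, 0.126 for AT5G65360, 0.151 for HTA13, 0.143 for HIS1-3, 0.0549 for HTA8, 0.0555 for AT4G37210, 0.0809 for AT3G09480, 0.115 for ABI1, 0.173 for COR15A and 0.111 for CMT3. The replicate block also ended the call of AT3G09480 (0.0783), as did median centring (0.0531) and no filter (0.051).

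Median centring moved the log2 ratio of class sums to 0.40 for H3.1, -0.04 for H3.3, 0.04 for H4 and -0.06 for H2B. The H3.3 ratio was 0.04 under quantile normalisation and 0.02 per kb. The difference in H3.1 share was 6.45 percentage points with sums of deposited values. The H1 ratio was -0.01 under median centring and ran from -0.04 to 0.12 with a library left out, and the H2B ratio from -0.04 to 0.02. Among genes, signs reversed only in those not called with all libraries. Under median centring AT4G40040 was at -0.04 and AT1G07820 at -0.05. With a library left out, AT4G40040 ran from -0.02 to 0.05, AT1G07820 from -0.03 to 0.04, AT2G30620 from -0.01 to 0.11, RBCS3B from -0.40 to 0.07, PHO1 from -0.04 to 0.86 and IRT1 from -0.15 to 0.48 (PHO1 and IRT1 called without cmt3 replicate 2), and RBCS3B was at 0.00 under quantile normalisation. The causes were not tested.

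Libraries with the same replicate number did not deviate together (r = 0.0006), so no shared replicate effect was seen. This r cannot exclude that replicates were handled as pairs, and no label says so. With a replicate block 1314 genes were higher and 473 lower, with 5 and 1 histone genes. Depth is unknown, so its limit on these values cannot be given.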
